A study of Caenorhabditis elegans with 2 samples.

Results

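The promoters of the protein-coding genes of chromosome X were described in a map of the protein encoded by D2030.7 in whole Caenorhabditis elegans. For each protein-coding gene the promoter was a window around its 5′ end, reaching 1000 bp upstream and 200 bp downstream, whether or not a binding site lay in it. Chromosome X has 2731 such windows of 19973 in the genome, and the 17242 windows of chromosomes I to V served as the comparison. The worms were of strain RW12302, in which a CRISPR insertion on chromosome I fuses TY1, EGFP and 3xFLAG to D2030.7 (allele st12302[D2030.7::TY1::EGFP::3xFLAG] I). They were young adults of 62.5 hours, raised from L1 larvae that had been starved after bleaching. Chromatin of whole worms was sonicated and precipitated with an anti-GFP antibody (ChIP-seq). There was 1 group with 2 biological replicates, and both carried the tagged allele. A control named in the labels was not used here, so sites that any such precipitation would give cannot be told apart from sites of the tagged protein. Whole worms also mix germline and somatic nuclei, and a site used in few cells cannot be told apart from one weakly used in many.

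The X chromosome of C. elegans is poor in genes expressed in the germline and is kept largely silent in germ nuclei, whereas in the soma of hermaphrodites both X chromosomes are bound by the dosage compensation complex, which lowers their output. It is also rich in tRNA genes, which RNA polymerase III transcribes from promoter elements inside the gene, the A box and the B box. The transcription factor TFIIIC recognises both boxes. A protein-coding promoter can hold a binding site because a small RNA gene happens to lie in the same window, so each site was placed in 1 of 2 classes. A summit, the point of strongest enrichment in a peak, was called a small RNA summit where a tRNA, snRNA or snoRNA gene lay within 200 bp, and otherwise a summit away from small RNA genes.

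X promoters rarely held a summit, and most of those that did lay beside a small RNA gene. In the main list, which pools both replicates and keeps peaks with an irreproducible discovery rate (IDR) of at most 0.01, 58 of 2731 X promoters had a summit, or 2.12% (exact 95% interval 1.62 to 2.74), against 1897 of 17242 autosomal promoters, or 11.0% (10.5 to 11.5). Over all chromosomes 9.79% of promoters had one. Away from small RNA genes the count was 21 X promoters, or 0.769% (0.477 to 1.17), against 1796 autosomal promoters, or 10.4% (9.96 to 10.9), where 9.10% of all promoters passed. At small RNA genes the order was the other way, with 37 X promoters, or 1.35% (0.956 to 1.86), against 105 autosomal promoters, or 0.609% (0.498 to 0.737), and 0.711% of all promoters. The remaining 2673 X promoters had no summit in this list. These intervals cover counting over promoters only, promoters are not replicates, and no test was made.

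The sequences under the X summits are shown first, because the strongest of those away from small RNA genes carry letters also seen at tRNA genes. The B box was searched on both strands as GTTCGANNC, where N is any base. A form with any base at the fifth position, GTTCNANNC, was added after the sequences had been seen. Each line gives the 100 bp around a summit in ce11 (WBcel235), on the strand stated, with the match to GTTCNANNC in capitals, and the names are those of the genes whose promoters hold the summits. The first 6 lie away from small RNA genes.
Y81B9A.1, chrX:9191896-9191995, plus strand: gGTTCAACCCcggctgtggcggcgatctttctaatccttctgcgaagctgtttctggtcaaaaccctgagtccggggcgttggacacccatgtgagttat
F39F10.2, chrX:16893947-16894046, plus strand: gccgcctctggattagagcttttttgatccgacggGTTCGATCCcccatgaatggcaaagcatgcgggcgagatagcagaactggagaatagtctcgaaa
F22F1.2, chrX:8151558-8151657, minus strand: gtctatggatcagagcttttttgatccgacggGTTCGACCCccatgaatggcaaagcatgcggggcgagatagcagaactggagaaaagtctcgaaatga
ZK816.3, chrX:3348031-3348130, plus strand: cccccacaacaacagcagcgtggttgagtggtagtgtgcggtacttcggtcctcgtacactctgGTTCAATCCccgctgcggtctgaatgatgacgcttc
F02E8.4, chrX:4453234-4453333, plus strand: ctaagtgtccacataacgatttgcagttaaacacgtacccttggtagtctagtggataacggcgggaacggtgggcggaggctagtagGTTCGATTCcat
Y40A1A.3, chrX:1998958-1999057, minus strand: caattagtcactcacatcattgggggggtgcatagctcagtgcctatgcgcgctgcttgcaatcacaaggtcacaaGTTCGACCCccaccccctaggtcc
The printed windows of F39F10.2 and F22F1.2 shared a run of 27 bp on opposite genomic strands, and their whole peaks a run of 52 bp.
For comparison, summits on tRNA genes in the promoters of cyp-43A1 and idpp-5 read as follows, in tRNA-Lys and tRNA-Val genes.
cyp-43A1, chrX:5713632-5713731, plus strand: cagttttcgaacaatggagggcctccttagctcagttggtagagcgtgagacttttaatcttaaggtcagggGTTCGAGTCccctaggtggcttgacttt
idpp-5, chrX:3793537-3793636, minus strand: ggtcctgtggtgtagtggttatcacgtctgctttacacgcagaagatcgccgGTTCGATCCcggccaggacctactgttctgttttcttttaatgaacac
The next 4 summits, away from small RNA genes, had no match in 100 bp. The printed window of T13C5.6 shared a run of 30 bp with that of ZK816.3 (34 bp between the whole peaks) on the same genomic strand, which the printed lines give as reverse complements, and the one of T08D2.6 was far richer in A and T than the others. The hsp-3 window ends at the gene's 5′ end and is 97 bp long.
T08D2.6, chrX:182401-182500, minus strand: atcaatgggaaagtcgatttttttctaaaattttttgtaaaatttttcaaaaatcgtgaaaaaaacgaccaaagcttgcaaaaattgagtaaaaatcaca
mrp-4, chrX:9883971-9884070, plus strand: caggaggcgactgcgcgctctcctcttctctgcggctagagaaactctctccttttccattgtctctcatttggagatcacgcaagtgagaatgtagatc
T13C5.6, chrX:6207791-6207890, minus strand: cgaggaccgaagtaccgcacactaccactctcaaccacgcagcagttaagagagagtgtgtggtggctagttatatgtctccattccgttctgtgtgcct
hsp-3, chrX:6092125-6092221, minus strand: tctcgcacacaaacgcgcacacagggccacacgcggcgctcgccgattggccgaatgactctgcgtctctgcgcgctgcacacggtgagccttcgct

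The B box GTTCGANNC lay in 4 of 20 X summit windows away from small RNA genes, or 20% (exact 95% interval 5.73 to 43.7), against 8 of 1354 autosomal windows of that class, or 0.591% (0.255 to 1.16). Among all X promoters, a window of the same length centred 200 bp upstream of the 5′ end held it in 16 of 2731 cases, or 0.586%, and in the 40 windows centred 300 bp to either side of the X summits it was found in 0. At small RNA genes 23 of 34 X windows held it, or 67.6% (49.5 to 82.6), against 29 of 98 autosomal windows, or 29.6% (20.8 to 39.7). Of the 34 X summits 33 were at tRNA genes and 1 at a snoRNA gene, whereas of the 98 autosomal summits 49 were at tRNA, 22 at snRNA and 27 at snoRNA genes. At tRNA genes alone the box lay in 23 of 33 X windows, or 69.7% (51.3 to 84.4), against 26 of 49 autosomal windows, or 53.1% (38.3 to 67.5), and these intervals overlapped. The looser GTTCNANNC, which includes every GTTCGANNC, lay in 6 of the 20 X windows away from small RNA genes, or 30% (11.9 to 54.3), against 31 of 1354 autosomal windows, or 2.29% (1.56 to 3.23), and in 3.44% of all X promoter windows. In 200 bp around each summit it lay in 7 of 20, against 4.87% of autosomal windows and 6.33% of all X promoter windows. Of the 8 X summits with the highest signal 6 held it within 200 bp, and of the other 12 only T13C5.6 did. These letters describe the windows and do not show which factor was bound. The A box was not searched for. Summits were split by annotated genes only, so sequence like a tRNA gene but not annotated as one counts as away. The shares and intervals count every window as separate, although some share sequence. F39F10.2 and F22F1.2, both with GTTCGANNC, share a run of 52 bp between their peaks, and ZK816.3 and T13C5.6 share 34 bp. The intervals do not allow for such related windows.

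**Figure D1:**
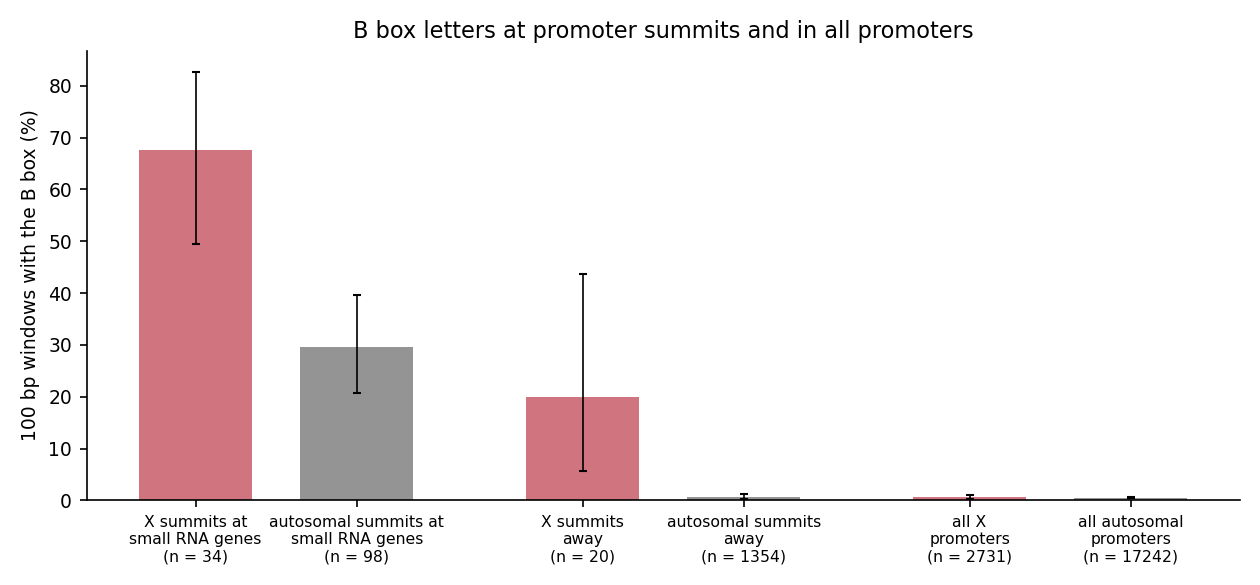
Share of 100 bp windows (percent) that hold the B box GTTCGANNC on either strand, at promoter summits at small RNA genes and away from them and in windows centred 200 bp upstream of all protein-coding 5′ ends. Red bars are X and grey bars the autosomes, n is the number of windows, and lines are exact 95% intervals; X summits away from small RNA genes stand at 20%, against 0.591% for the autosomal ones.

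The X summit windows away from small RNA genes were also rich in G and C. Their median G and C content was 52.5% over 100 bp (quartiles 50 and 56%), against 44.0% at autosomal summits of the same class (39 and 50%), and it was 34% in the windows 300 bp to either side of the X summits and 35.0% over all X promoters. The GC box GGGCGG lay in 3 of 20 X windows, or 15% (3.21 to 37.9), against 4.73% of the autosomal windows. Over all X promoter windows its share was 2.64%, and 300 bp to either side of the X summits it was 0 of 40. In 200 bp the GC box lay in 7 of 20 X windows, or 35% (15.4 to 59.2). The shares in 200 bp were 7.68% at the autosomal summits and 5.05% over all X promoters. The letters TTTCGCGC, which E2F factors bind, lay in 0 of 20 X windows (upper bound 16.8%), against 78 of 1354 autosomal windows, or 5.76%, and 0.293% of all X promoter windows. In 200 bp they lay in 1 of 20, against 7.46%. TTTGAA, part of the CHR element, lay in 1 of 20 X windows (0.127 to 24.9%), against 26.1% of the autosomal ones. That autosomal share was near the 26.4% of all X and 29.97% of all autosomal promoter windows. In 200 bp TTTGAA lay in 2 of 20, against 47.3% of the autosomal windows. In the windows 300 bp to either side of the X summits it lay in 14 of 40, or 35%. Motif shares were not adjusted for G and C content. The GATA letters TGATAA were found in 0 of 20 X windows, against 4.43% of the autosomal windows and 11.3% of all X promoter windows. The E-box letters CACGTG were found in 0 of 20, against 2.36% of the autosomal windows and 1.501% of all X promoter windows. The letters CGCAGGG, which sites of the dosage compensation complex share, were found in 0 of 20, against 0.665% of the autosomal windows and 0.183% of all X promoter windows. With 20 windows, a share of a few percent was not detectable.

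Both replicates gave the same order of X and autosomes. Counting all summits, 52 X promoters had one in replicate 1, or 1.90% (9.08% over all chromosomes), and 45 in replicate 2, or 1.65% (6.55% over all). In the list of replicate 1 alone, 15 X promoters had a summit away from small RNA genes, or 0.549%, against 1672 autosomal promoters, or 9.70%, with 8.45% over all chromosomes. In the list of replicate 2 alone there were 10 X promoters, or 0.366%, against 1182, or 6.86%, with 5.97% over all. The mean over the replicates was 0.458 ± 0.129% on X and 8.28 ± 2.01% on the autosomes (SD, n = 2 each), and the main list gave a difference, X minus autosomes, of −9.65 percentage points, or a share 13.5 times higher on the autosomes. At small RNA genes replicate 1 had 37 X promoters (background 0.646%) and replicate 2 had 35 (background 0.611%), giving 1.32 ± 0.0518% on X and 0.519 ± 0.0205% on the autosomes (SD, n = 2 each). The X share was thus 2.54 times the autosomal share in each replicate and 2.22 times in the main list. With 2 replicates of 1 group the design allows no permutation test between conditions, and the spread here is that between 2 lists whose depth is unknown.

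Each autosome stood above X away from small RNA genes. The share there was 0.769% on X, 14.6% on I, 9.65% on II, 15.9% on III, 9.39% on IV and 6.29% on V, the lowest autosome. The lower bound of its interval, 5.63%, lay above the X interval. At small RNA genes the X share of 1.35% was followed by 0.834% on I, 0.671% on IV, 0.609% on II, 0.530% on III and 0.481% on V, and the intervals of X and I overlapped. Along X the sites were spread out: 3 stretches of equal length held, in order, 7 of 871, 6 of 976 and 8 of 884 promoters with a summit away from small RNA genes, and 10, 13 and 14 promoters with a small RNA summit.

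**Figure D2:**
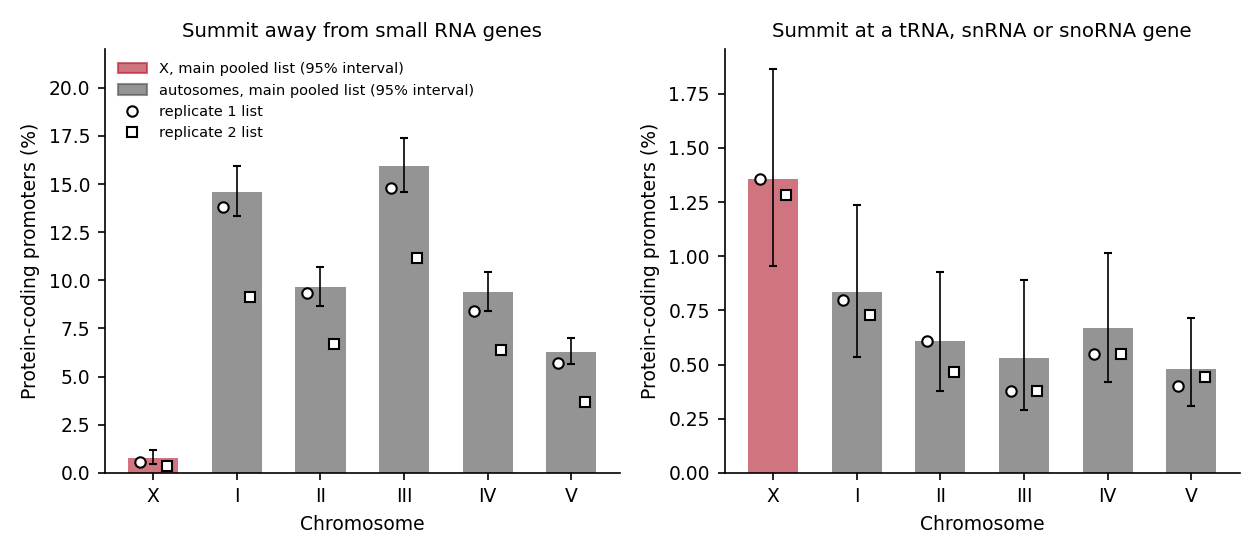
Share of protein-coding promoters (percent) with a summit away from small RNA genes, left, and at a tRNA, snRNA or snoRNA gene, right, by chromosome, X first; the vertical scales differ. Bars are the main list with exact 95% intervals, circles the list of replicate 1 and squares that of replicate 2; on the left X stands at 0.769% and V, the lowest autosome, at 6.29%.

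The few X summits away from small RNA genes lay, at the median, farther from the 5′ end than the autosomal ones. They numbered 20, of which 2 lay in the promoters of 2 divergent genes each and 2 in the promoter of B0410.3. All 20 lay upstream of the 5′ end (exact 95% interval 83.2 to 100%). So did 1223 of 1354 autosomal summits, or 90.3%, a share inside that interval. All 20 X summits also lay between protein-coding genes and 5 within an annotated ncRNA gene, with no autosomal values given here. Measured to the nearest 5′ end, their median position was −412 bp (quartiles −696.5 and −270.25), against −195.5 bp (−361.75 and −92) for the 1354 autosomal summits. The X median was close to the midpoint of the window, −400 bp. It rests on few summits and moved with their choice, to −667 bp where a peak of each replicate overlapped and to −836 bp where that overlap was reciprocal by 50%. Within 250 bp of the 5′ end lay 4 of 20 X summits, those of C25F6.8 at −24, hsp-3 at −48, T13C5.6 at −154 and chkr-1 at −240, or 20%, against 823 of 1354 autosomal summits, or 60.8%. Of all X summits away from small RNA genes, 20 of 69, or 29.0% (18.7 to 41.2), were in a protein-coding promoter, against 1354 of 2116, or 64.0% (61.9 to 66.0), on the autosomes. The share of sequence that promoter windows cover is not given here and may differ between X and the autosomes.

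Signal, the authors' deposited value per peak, of unstated scale, had a lower median on X in the pooled list and in replicate 1, but not in replicate 2. Its median over the 20 X summits was 97.7 (quartiles 81.3 and 158, highest 239), against 132 (94.6 and 211, highest 1144) over the autosomal summits. In the list of replicate 1 the medians were 63.2 over 14 X summits and 85.0 over 1275 autosomal summits, and in that of replicate 2 they were 82.3 over 10 X summits and 73.3 over 852. Of the autosomal summits 263, or 19.4%, stood above the highest X summit. At small RNA genes the medians were close, 179 over 34 X summits and 174 over 98 autosomal summits, with highest values of 349 and 1128.

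**Figure D3:**
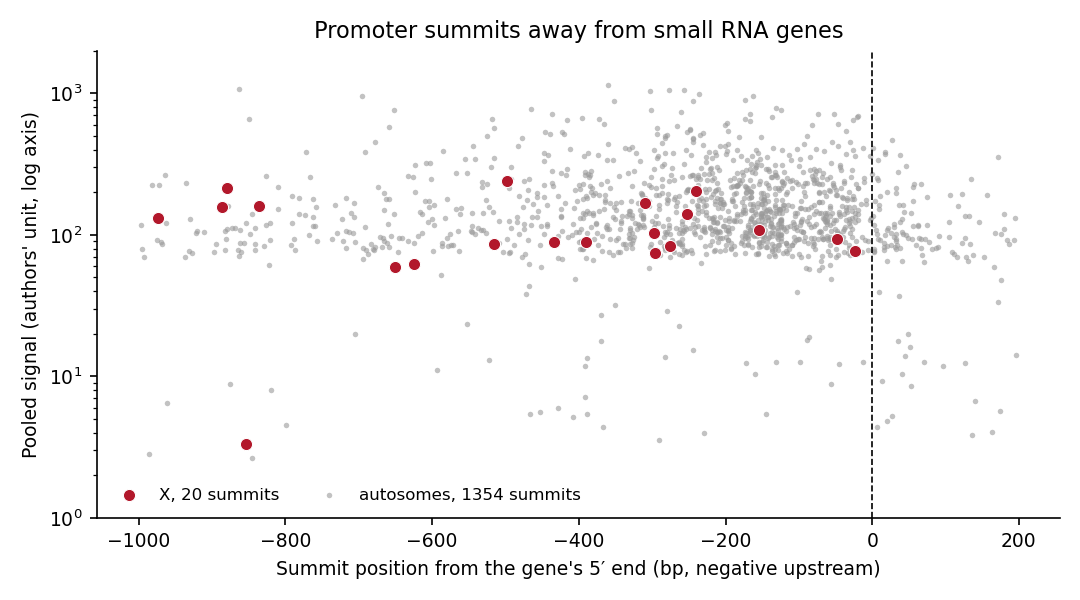
Pooled signal (authors' unit, log axis) of each promoter summit away from small RNA genes against its position from the nearest protein-coding 5′ end (bp, negative upstream; the dashed line marks the 5′ end). Red points are the 20 X summits, with a median position of −412 bp, and grey points the 1354 autosomal summits, with a median of −195.5 bp; the lone low red point is a second summit in the B0410.3 promoter with a signal of 3.32.

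The members with the highest signal were found in both replicates. Signals of different lists are on different scales, so each value is read within its own list. Upstream of Y81B9A.1 the summit at −498 bp, inside the ncRNA gene Y81B9A.5, had a signal of 239 in the pooled list, 134 in replicate 1 and 94.7 in replicate 2. The F39F10.2 summit at −880 bp had 215 pooled, 89.99 in replicate 1 and 111 in replicate 2. The summit that T08D2.6 and chkr-1 share, at −282 and −240 bp, had 203 pooled, 162 in replicate 1 and 40.8 in replicate 2. Its peak was 133 bp wide where 18 of the 20 were 336 bp, and its 100 bp held 25% G and C. ZK816.3, at −310 bp and inside 2 ncRNA genes, had 168 pooled, 79.1 in replicate 1 and 94.3 in replicate 2. F02E8.4, at −836 bp, had 159 pooled, 78.9 in replicate 1 and 85.8 in replicate 2. F22F1.2, at −887 bp, had 158 pooled, 69.6 in replicate 1 and 89.5 in replicate 2. In these 3 promoters the summit passed the threshold of each replicate's own list. The promoter of mrp-4, which encodes an ABC transporter of the multidrug resistance protein family, had a summit at −253 bp with 140 pooled, 63.2 in replicate 1 and 78.8 in replicate 2. Y40A1A.3, at −974 bp near the far edge of its window and inside the ncRNA gene Y40A1A.6, had 131 pooled, 57.0 in replicate 1 and 65.5 in replicate 2. These 8 were the summits whose peak was overlapped, by at least 1 bp, by a peak in the thresholded lists of both replicates. They lay in 9 X promoters, of which 7 remained where the overlap had to be reciprocal by 50%.

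A further 3 summits passed the threshold in replicate 1 only. They lay in the promoters of T13C5.6 (pooled signal 108), serp-1.1 (102.6) and K04C1.5 (88.9), with signals of 57.6, 63.1 and 51.7 in replicate 1, and were ranked below the threshold in replicate 2 with 48.0, 47.4 and 38.8. The other 9 passed in the pooled list alone. Among them was hsp-3, which encodes an Hsp70 chaperone of the endoplasmic reticulum of the BiP kind, with its summit at −48 bp, a pooled signal of 92.8 and ranked signals of 60.05 in replicate 1 and 44.8 in replicate 2. The summit of gcsh-1, which encodes the H protein of the glycine cleavage system, lay at −515 bp with a pooled signal of 85.8. R04D3.3 and the chemoreceptor gene srd-38 shared a summit of 82.8, at −276 and −899 bp. The remaining ones were F57G12.1 (89.3, at −390 bp), C25F6.8 (76.8, at −24 bp), C49F5.6 (74.5, at −296 bp), B0416.10 (62.5, at −625 bp) and both summits of B0410.3 (59.1 at −650 bp and 3.32 at −854 bp). Both B0410.3 summits had the same ranked values, 38.2 in replicate 1 and 36.3 in replicate 2, so these do not set them apart. The B0416.10 site was the only 1 of the 20 without a ranked candidate in replicate 2. In the other pooled list 15 of the 20 were found and the 5 named last were not. That list had a summit in 58 X promoters (10.5% over all chromosomes), 22 of them away from small RNA genes (9.85% over all) and 36 at small RNA genes (0.706% over all). The central 50 bp of all 20 summits occurred once in the genome as an exact match, and copies with mismatches were not searched for.

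**Figure D4:**
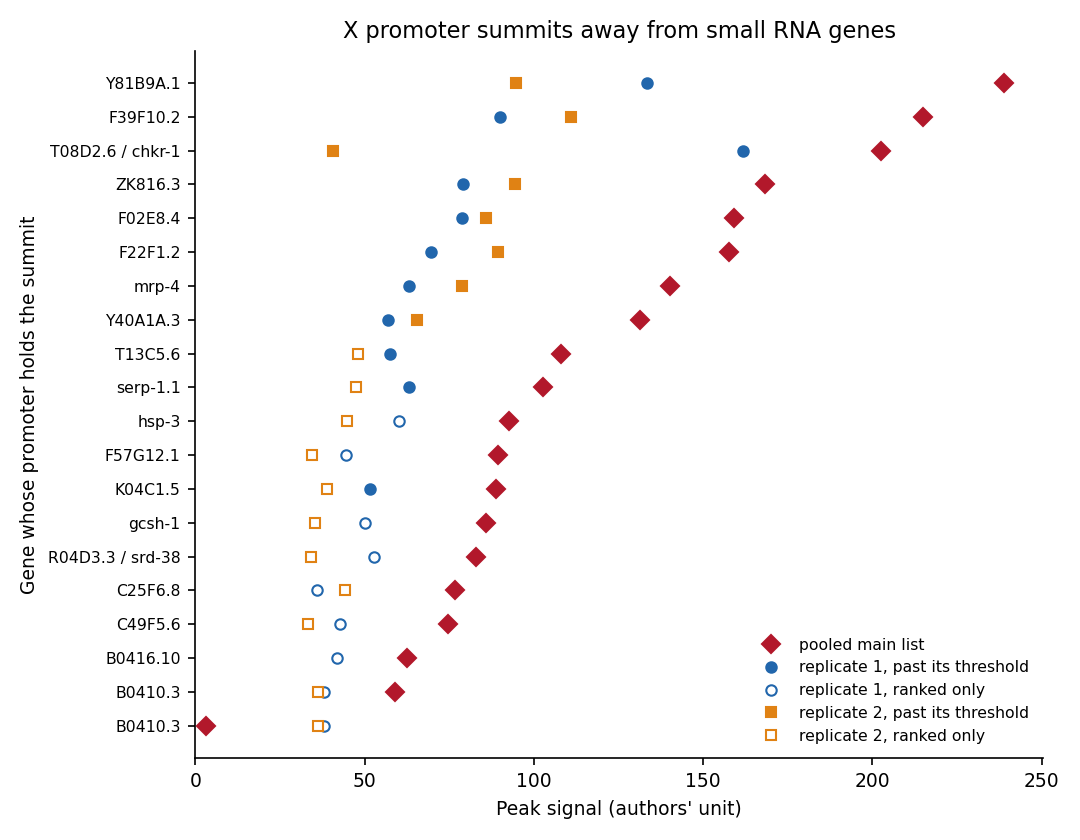
Signal (authors' unit) of the 20 X promoter summits away from small RNA genes, 1 row each, ordered by pooled signal. Replicate values are those of the strongest overlapping peak, and both B0410.3 rows show the same ones. Diamonds are the pooled main list, circles replicate 1 and squares replicate 2, filled where the peak passed that replicate's threshold and open where it was only ranked; both replicates are filled in the upper 8 rows.

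The X promoters with small RNA summits numbered 37 and shared 34 summits, of which 29 were in the lists of both replicates and 0 in neither. The highest was upstream of F42F12.14, at the tRNA-Leu gene F42F12.t1, with 349 pooled, 169 in replicate 1 and 189 in replicate 2. F28H6.8 followed at a tRNA-His gene with 278 pooled, 157 in replicate 1 and 113 in replicate 2. The next was cyp-43A1, a cytochrome P450 gene, at a tRNA-Lys gene with 247 pooled, 136 in replicate 1 and 103.3 in replicate 2. Then came smvt-1, which encodes a multivitamin transporter of the sodium-dependent kind, at tRNA-Asn (240), idpp-5 at tRNA-Val (233), C25F6.6 at tRNA-Lys (228), the nuclear hormone receptor gene nhr-255 at tRNA-Leu (228) and sor-3 at tRNA-Leu (226). All 8 exceeded 200 in the pooled list, a level reached away from small RNA genes by the summits of Y81B9A.1, F39F10.2 and T08D2.6. The other summits of this class ranged from 16.7 to 225. Chosen for their known roles after the values were seen, they included a summit of 225 at a tRNA-Glu gene upstream of sec-15, an exocyst gene, and within C28G1.2. Another, of 220.1 at a tRNA-Ala gene, lay in the promoters of both mom-1, which encodes a Porcupine enzyme of Wnt secretion, and lev-9, a gene for the clustering of acetylcholine receptors. The single snoRNA summit, at Y73B3A.30, lay in the promoters of Y73B3A.1 and Y73B3A.20 with a signal of 137. The central 50 bp of 15 of these 34 summits occurs more than once in the genome, so the reads behind them may be split or misplaced among copies, depending on how multiply matching reads were treated, which is not given in the sources used here.

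Most of the X promoters with a summit had a small RNA gene in reach of the window. A tRNA, snRNA or snoRNA gene was in reach of 62 X promoters, or 2.27%, against 284 autosomal promoters, or 1.65%, and 37 of the 62, or 59.7% (46.5 to 71.9), had a small RNA summit, against 105 of 284, or 37.0% (31.3 to 42.9). A tRNA gene was in reach of 53 X promoters, or 1.94%, against 101 autosomal promoters, or 0.586%. Among these promoters, 35 of 53 on X had a small RNA summit, or 66.0% (51.7 to 78.5). On the autosomes it was 53 of 101, or 52.5% (42.3 to 62.5), and these intervals overlapped. The summit itself could be at a tRNA, snRNA or snoRNA gene. Among promoters with no small RNA gene in reach, 21 of 2669 on X had a summit, or 0.787% (0.488 to 1.20), against 1755 of 16958 on the autosomes, or 10.3% (9.89 to 10.8).

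The ranked lists hold candidates below the threshold too, and there X and autosomal promoters differed more in points and less in ratio than in the thresholded lists. A ranked candidate summit lay in 941 X promoters, or 34.5% (32.7 to 36.3), against 9739 autosomal promoters, or 56.5% (55.7 to 57.2), with 53.5% over all. Away from small RNA genes it was 913 X promoters, or 33.4%, against 9651, or 56.0% (background 52.9%). Of those 913 only 21 passed the threshold, or 2.30% (1.43 to 3.49), against 1796 of 9651, or 18.6% (17.8 to 19.4), with 17.2% over all chromosomes. In replicate 1, where 516 X promoters, or 18.9%, had a candidate away from small RNA genes (39.9% over all), the passing share was 15 of 516 X promoters, or 2.91%, against 22.4% on the autosomes (background 21.2%), and in replicate 2, where 786, or 28.8%, had one (40.2% over all), it was 10 of 786, or 1.27%, against 16.3% (background 14.8%). The best candidate of an X promoter had a median signal of 29.4 and a 90th percentile of 52.02, against 37.2 and 134 on the autosomes, so the groups lay closer at the median than in the upper tail.

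**Figure D5:**
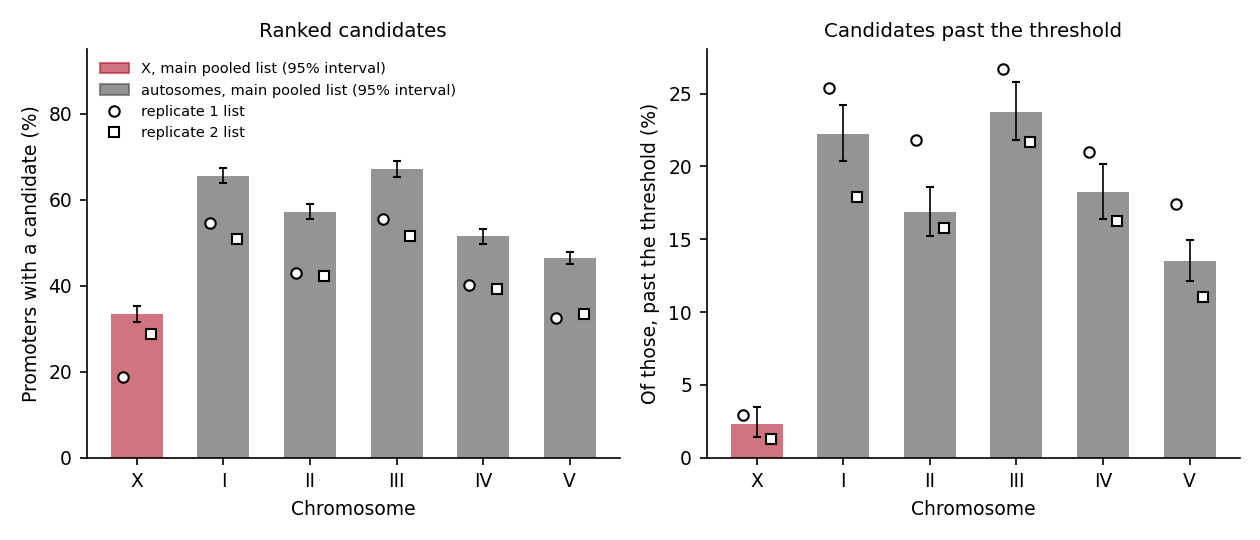
Share of protein-coding promoters (percent) with a ranked candidate summit away from small RNA genes, left, and the share of those promoters that passed the threshold, right, by chromosome, X first. Bars are the pooled lists with exact 95% intervals, circles replicate 1 and squares replicate 2; on X 33.4% had a candidate and 2.30% of those passed.

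The threshold stood at a −log10 IDR of 2. Just above it lay C49F5.6 at 2.09 with a signal of 74.5 and both B0410.3 summits at 2.11. Just below lay sms-2 at 1.91 with a signal of 61.2, and 1 candidate of 77.5, also at 1.91, in the shared upstream region of meg-3 and Y40A1A.2. The signal of that candidate, 213 bp upstream of meg-3, which encodes a P granule protein of the germline, was thus above those of C49F5.6 and B0410.3.

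The gene lists were read against the share over all X promoters, 2.12%, at which lists of a few X genes would hold no summit in most cases. Their counts of 0 on X are therefore a description and say nothing particular to the lists. Among germline and oocyte genes 0 of 4 X members had a summit, against 35 of 50 autosomal members, or 70.0%. Among cell cycle and DNA replication genes it was 0 of 1 against 41 of 53, or 77.4%, and among cytosolic ribosomal protein genes 0 of 2 against 58 of 79, or 73.4%. Translation factor genes had 0 of 3 against 15 of 38, and histone genes 0 of 5 against 20 of 76. The mitochondrial ribosomal protein, proteasome and aminoacyl-tRNA synthetase lists had 0 members on X. Over these 5 lists with X members, put together after their values were seen, 0 of 15 X genes had a summit (exact upper bound 21.8%), against 2.12% of all X promoters and 169 of 296 autosomal genes, or 57.1%, in lists with high autosomal shares. Candidates below the threshold lay in 9 of the 15, where 34.5% of all X promoters and 53.5% of all promoters had one.

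The named members of these lists had the following highest candidate signals. The P granule genes meg-3, meg-1, meg-2 and meg-4 had 77.5, 61.6, 36.8 and 31.2, so all 4 were reached by a candidate and none passed. Of the others, the linker histone gene his-24 had 64.3, the cyclin-dependent kinase gene cdk-4 had 42.9, and the ribosomal protein gene rpl-25.1 had 25.4. No candidate was listed for rpl-11.2, for the cap-binding protein genes ife-2 and ife-4 or for the elongation factor gene eef-1A.2.

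Outside these lists 2 listed X genes had a summit away from small RNA genes. They were hsp-3, 1 of 5 chaperone genes on X against 18 of 54 on the autosomes, and srd-38, 1 of 34 chemoreceptor genes on X against 6 of 1276 on the autosomes. Of all promoters 0.769% on X and 10.4% on the autosomes had a summit away from small RNA genes. The srd-38 summit lay nearer to the 5′ end of R04D3.3 and passed in neither replicate's own list, so this single gene sets no order of X and autosomes. In the other lists with an X summit that summit was at a tRNA gene. These were nhr-255 among 27 nuclear hormone receptor genes, col-185 among 30 collagen genes, twk-21 among 20 potassium channel genes, the ligand-gated channel genes lgc-11 and lgc-25 among 31 receptor genes, and the cytochrome P450 genes cyp-43A1 and cyp-14A4 among 14 detoxification genes. No summit lay in the promoters of 37 neuropeptide and insulin, 26 homeobox, 14 muscle, 17 F-box and 3 C-type lectin genes on X. Over all 22 lists 9 of 283 X genes had a summit, or 3.18% (1.46 to 5.95), an interval that holds the 2.12% of all X promoters, against 275 of 3220 autosomal genes, or 8.54%, where 11.0% of all autosomal promoters had one.

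The sex determination and dosage compensation list, whose X members include the genes by which the worm counts its X chromosomes, had 0 of 7 X promoters with a summit, against 2 of 18 on the autosomes and 2.12% of all X promoters. Candidates below the threshold were ranked for sdc-1, part of the machinery that brings dosage compensation to X, with a signal of 66.9, for the X signal element gene fox-1 with 61.9 and for ceh-39, another such gene, with 47.9. None was listed for xol-1, the switch gene of sex determination, sdc-2, sex-1 or dpy-22. The yolk protein genes vit-1 to vit-5 had 0 of 5 with a summit, a count that again could not be told from the X share, and candidate signals of 33.4 for vit-3, 23.5 for vit-2 and 3.91 for vit-1, with none listed for vit-4 and vit-5. The single autosomal vitellogenin gene also had none past the threshold.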

How the data were processed

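ChIP-seq peak lists of 2 biological replicates were used. Per the labels' protocols chromatin was sonicated. The genome build was ce11 per the file descriptions and the labels, and neither an aligner nor a peak caller is named (not given in the sources used here). All 8 deposited lists comprise ranked and thresholded forms of the list of each replicate and of 2 pooled lists, and the conservative pooled list of 2777 peaks was the main one. Signal per peak is the authors' deposited value, of unstated scale, and was used only within a list. The ranked lists also carry the authors' deposited IDR score, −log10 of the IDR, capped at 5. Thresholded lists hold ranked peaks at 2 or above, except that 14 such X peaks, with a signal of up to 2629 and 0 of them in promoters, are in the ranked but not in the main list, as are 77 on the autosomes. A summit is the peak's start plus the deposited offset. The lists hold no read counts, so depth is unknown and no counting error of a signal could be given.

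Genes were those of Ensembl release 115 (WBcel235), and tRNA products came from RefSeq. A summit could count for several promoters. Medians, quartiles and counts of positions refer to the nearest 5′ end, and a position given with a named gene refers to that gene's own 5′ end. Shares have exact (Clopper-Pearson) 95% intervals over promoters or windows. Python 3.11.15, pandas 2.3.3, SciPy 1.17.1 and Biopython 1.88 were used, and the procedures were tested on simulated data with planted summits. The members, the 22 gene lists, the motifs and the alternatives were chosen with earlier results of these data known. Named were the X genes with a summit away from small RNA genes, the 8 highest at small RNA genes and up to 4 per list. The sex determination and vitellogenin members on X were named too. Next to the threshold, 3 entries of a candidate in a promoter were named on each side, and those of meg-3 and Y40A1A.2 hold the same candidate. The looser B box and the 200 bp window were added after the data were seen.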

Additional observations from a re-analysis of the deposited data

How the results depend on the processing

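No paired analysis was possible because both replicates belong to 1 group and no contrast between groups exists. Of 70 alternative values 44 stayed within 1.5 times the count, or within the SD between replicates, and 26 moved. X stayed below the autosomes in all 19 alternatives for the difference. With the window of 500 bp upstream to 100 bp downstream, 28 X promoters had a summit, 13 away from small RNA genes and 3 among listed genes, 612 had a candidate, and the median position was −286 bp. In the upper 50% of the main list by signal 9 X promoters remained away from small RNA genes (difference −5.47 points, median position −667 bp). Where a peak of each replicate overlapped, the values were 9, −5.73 points and −667 bp, and with a reciprocal overlap of 50% they were 7, −4.57 points and −836 bp, with 26 X promoters in all. Giving each summit to the nearest 5′ end made the difference −6.77 points. Against single autosomes it was −13.8 for I, −15.2 for III and −5.52 for V. The median position was −310 bp in the other pooled list and −434 bp where only summits inside a small RNA gene were set apart. With 1 replicate left out, 45 to 52 X promoters had a summit, 10 to 15 away from small RNA genes, the difference was −9.15 to −6.49 points and the median position −430.5 to −413 bp. Listed genes with a summit numbered 7 either way. The ranked list of replicate 1 gave 552 X promoters with a candidate, of which 9.42% passed. The cause of these moves was not tested. Leaving out summits with GTTCNANNC within 200 bp, an alternative chosen after the data were seen, left 14 X promoters and a difference of −9.45 points. Unknown depth limits any reading of a candidate that missed the threshold.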
